A study of Mus musculus with 6 samples.

Results

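The 6 genes that encode the subunits of prefoldin were examined in mouse oocytes depleted of *Btg4*, a gene whose protein brings a deadenylase to maternal mRNAs. The genes were taken by their symbols, *Pfdn1*, *Pfdn2*, *Vbp1*, *Pfdn4*, *Pfdn5* and *Pfdn6*, and all 6 were found among the 15707 genes of the deposited table. Polyadenylated RNA was sequenced from 3 libraries of *Btg4*-depleted oocytes and 3 libraries of control oocytes, with 50 oocytes in each. The oocytes of both groups came from (C57BL x CBA) F1 females of 10 to 12 days, were injected with siRNAs inside their follicles, grew for 8 to 10 days in culture and were collected in metaphase II. The *Btg4*-depleted group received siRNAs against *Btg4* and the control group received control siRNAs. RNA interference lowers a transcript without removing the gene, and the oocytes of several females were pooled. The comparison asked whether BTG4 takes part in the deadenylation of mRNAs.

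Prefoldin is a chaperone of the cytoplasm that catches newly made actin and tubulin chains and hands them to the ring-shaped chaperonin CCT, in which they fold. It contains each of its subunits in equal number. VBP1 and PFDN5 are the alpha-type subunits, and PFDN1, PFDN2, PFDN4 and PFDN6 are the beta-type subunits. PFDN2 and PFDN6 are also found in a second, prefoldin-like complex that is built around the protein URI. Tubulin forms the meiotic spindle of the oocyte, and actin forms much of its cortex.

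The prefoldin genes lie on 6 different chromosomes. In GRCm38 with the GENCODE M21 annotation, *Pfdn1* (gene 67199) runs from 36403676 to 36454524 on the minus strand of chromosome 18, and *Pfdn2* (gene 18637) from 171345670 to 171359254 on the plus strand of chromosome 1. *Vbp1* (gene 22327) runs from 75514299 to 75534942 on the plus strand of chromosome X, and *Pfdn4* (gene 109054) from 170496428 to 170519123 on the plus strand of chromosome 2. *Pfdn5* (gene 56612) runs from 102326116 to 102331873 on the plus strand of chromosome 15, and *Pfdn6* (gene 14976) from 33938821 to 33940343 on the minus strand of chromosome 17. Their principal transcripts have 4 exons, or 6 in *Vbp1* and *Pfdn5*.

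The deposited table gives a mean FPKM for each group (fragments scaled to transcript length and to library size), and the libraries behind each mean are not given one by one. The values therefore have no SD, no test of a difference between groups was possible, and a difference is described by its size only. Ratios were taken as log2 of FPKM + 1, *Btg4*-depleted over control, after both groups had been scaled to each other (TMM, a trimmed mean of ratios, which added 0.16 to the log2 ratio of FPKM). They were taken for the 10012 genes with a mean over both groups of at least 1 FPKM, and all 6 prefoldin genes passed this filter. Both FPKM and the scaling are relative, so a change shared by most transcripts would not show in the ratios. As a mark of size, genes at least 2-fold apart (a log2 ratio of 1 or more in either direction) were counted.

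The labels were checked with the targeted gene. *Btg4* had a mean of 1766 FPKM in controls and 39.3 FPKM after its depletion (log2 ratio -5.29). All 10 oocyte marker genes examined were present, at 6.08 to 4639 FPKM in controls and 17.6 to 3766 FPKM after depletion. Of 10 markers of granulosa or cumulus cells, the somatic cells of the follicle, 7 were listed, with a sum of 35.8 FPKM in controls and 33.0 FPKM after depletion. Of the 5 that passed the filter, *Cyp19a1*, the aromatase, was lower (14.8 and 5.87 FPKM, log2 ratio -1.06). *Inhba*, an activin subunit, was higher (4.28 and 9.24 FPKM, log2 ratio 1.11). *Amh*, *Fshr* and *Foxl2* were not listed under these symbols. The part of such cells in the values below was not tested. In pooled oocytes, fewer cells that carry a transcript and less of it in each cell cannot be told apart. From the mean normalized counts that the authors give for 320 genes, a library was estimated at 7.82 M fragments (M, mega), with 6.92 M at percentile 5 and 8.12 M at percentile 95 of these genes. At that depth, the prefoldin genes rest on an estimated 109 fragments per library (*Pfdn1* in control) to 2302 (*Pfdn4* in *Btg4*-depleted oocytes).

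Promoter windows from RefSeq (GRCm38.p6) were read for the member with the lowest ratio, *Pfdn2*, and for both members with the highest, *Pfdn6* and *Vbp1*. The paper holds that transcription is absent in metaphase II oocytes, and it ascribes the rise in polyadenylated mRNA to impaired deadenylation or decay. The windows are given as a description of the genes, and a link between promoters and ratios was not tested. Each window has 300 bases across the start of transcription and is written in the direction of the gene. The capitals mark short motifs found on either strand, and those searched were the GC box (GGGCGG), the CCAAT box (CCAAT), the ETS core (CCGGAAG), the TATA box (TATAAA) and the palindromic core of the NRF1 site. The windows are chr1:171345425-171345724 (plus strand) for *Pfdn2*, chr17:33940294-33940593 (minus strand) for *Pfdn6* and chrX:75514047-75514346 (plus strand) for *Vbp1*, and for genes with a second listed window the one at the annotated gene start is shown.
Pfdn2: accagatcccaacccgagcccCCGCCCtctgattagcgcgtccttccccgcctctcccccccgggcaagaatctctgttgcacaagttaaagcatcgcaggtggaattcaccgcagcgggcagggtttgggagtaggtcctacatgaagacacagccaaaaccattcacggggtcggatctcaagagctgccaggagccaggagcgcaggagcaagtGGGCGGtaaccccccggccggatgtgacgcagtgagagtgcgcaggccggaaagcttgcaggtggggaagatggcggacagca
Pfdn6: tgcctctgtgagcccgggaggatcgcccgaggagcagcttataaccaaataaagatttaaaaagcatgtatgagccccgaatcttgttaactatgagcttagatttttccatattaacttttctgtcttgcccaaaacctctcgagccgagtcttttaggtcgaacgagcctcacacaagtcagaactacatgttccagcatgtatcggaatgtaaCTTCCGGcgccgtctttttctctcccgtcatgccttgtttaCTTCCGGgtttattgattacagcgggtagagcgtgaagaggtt
Vbp1: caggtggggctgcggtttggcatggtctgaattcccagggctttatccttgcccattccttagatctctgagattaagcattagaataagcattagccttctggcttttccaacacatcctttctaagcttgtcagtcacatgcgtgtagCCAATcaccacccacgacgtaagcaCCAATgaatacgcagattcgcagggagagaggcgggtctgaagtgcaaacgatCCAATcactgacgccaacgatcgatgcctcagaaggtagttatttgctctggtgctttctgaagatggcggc

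The 3 promoters had no marked motif in common. The *Pfdn2* window held 2 GC boxes, a motif found in 35.7% of 32851 RefSeq promoter windows of the same length. The *Pfdn6* window held 2 copies of the ETS core in its reverse form CTTCCGG, which in either form is found in 8.86% of all windows, and the *Vbp1* window held 3 CCAAT boxes, found in 37.4% of all windows. Of the 7 windows listed for 5 prefoldin genes, some of which overlap, 3 held a GC box, 3 an ETS core and 1 a CCAAT box. The windows with an ETS core were that of *Pfdn4* and both overlapping windows of *Pfdn6*, which hold the same copies. A TATA box, found in 13.6% of all windows, was in 0 of the 7 windows, and so was the NRF1 core, found in 0.971%. A match of letters is not evidence that a factor binds there. The *Pfdn2* window also holds the start of *Nit1*, a gene for an amidase of the nitrilase family that runs the other way, and the annotated starts of the genes are 24 bases apart. The means of the neighbours differed in opposite directions: *Nit1* was at 4.03 FPKM in controls and 9.55 FPKM after depletion (log2 ratio 1.22), and *Pfdn2* was lower after depletion. *Wdr46*, a gene for a nucleolar protein of ribosome assembly, starts 317 bases from *Pfdn6* and was at 5.90 and 10.5 FPKM (log2 ratio 0.88). *Cyp24a1*, which starts 717 bases from *Pfdn4*, was below the filter at 0.147 FPKM in controls and 0.0833 FPKM after depletion.

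In control oocytes the prefoldin transcripts were present at very unequal levels in FPKM. FPKM is per length, but between genes it also depends on the poly(A) tail of each mRNA and on the deposited length. *Pfdn4* was the most abundant at 328 FPKM, followed by *Pfdn5* at 147 FPKM and *Pfdn2* at 73.3 FPKM. The other three were far lower, with *Pfdn6* at 24.8 FPKM, *Vbp1* at 20.8 FPKM and *Pfdn1* at 13.0 FPKM. *Pfdn4* was above 98.4% of all measured genes in this group and *Pfdn1* above 56.9%. The highest subunit was 25.3-fold above the lowest, although the protein complex contains them in equal number. With means alone, it cannot be said which neighbours in this order differ beyond the spread between libraries. The closest were *Pfdn6* and *Vbp1*, 1.19-fold apart, and the next were *Vbp1* and *Pfdn1*, 1.60-fold apart.

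In *Btg4*-depleted oocytes *Pfdn6*, *Vbp1* and *Pfdn1* were higher, *Pfdn4* and *Pfdn5* differed less, and *Pfdn2* was lower. *Pfdn6* was at 115 FPKM, *Vbp1* at 75.4 FPKM and *Pfdn1* at 29.9 FPKM, while *Pfdn4* was at 343 FPKM, *Pfdn5* at 179 FPKM and *Pfdn2* at 49.5 FPKM. At the deposited lengths the order from high to low became *Pfdn4*, *Pfdn5*, *Pfdn6*, *Vbp1*, *Pfdn2*, *Pfdn1*. *Pfdn2* thus went from rank 3 to rank 5 and *Pfdn6* from rank 4 to rank 3. The highest subunit was now 11.4-fold above the lowest. Without *Pfdn4* these folds were 11.3 in controls and 5.97 after depletion. The coefficient of variation over the 6 means was 121% in controls and 88.0% after depletion. The plot of levels shows these values gene by gene.

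**Figure D1:**
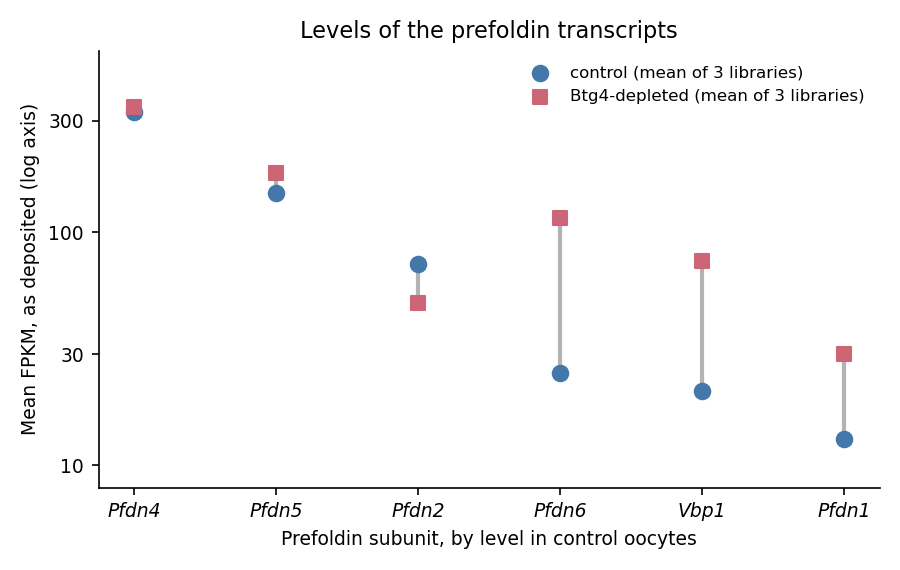
Mean FPKM of each prefoldin transcript as deposited (log axis) in control (circles) and *Btg4*-depleted oocytes (squares), each the mean of 3 libraries, with a grey line joining both groups; no error is known for the means. The 3 subunits on the right, between 13.0 and 24.8 FPKM in control, are the ones past 2-fold after depletion.

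After scaling, 3 of the 6 prefoldin genes were 2-fold or more higher after depletion and 0 were 2-fold or more lower. Over all 10012 measured genes, 19.8% were at least 2-fold higher and 11.7% at least 2-fold lower. Of the genes past 2-fold, 62.9% were thus on the higher side, and 49.1% without scaling. The median log2 ratio of the prefoldin genes was 0.87, beside -0.02 over all measured genes, whose quartiles were -0.66 and 0.78. These counts and medians have no test behind them and do not set prefoldin apart from other genes. The median also says little about the single subunits, because their log2 ratios ran from -0.40 to 2.33.

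*Pfdn6*, a beta-type subunit, had the highest ratio. Its mean went from 24.8 FPKM to 115 FPKM, a log2 ratio of 2.33 or 5.19-fold after scaling, which lies at percentile 99.0 of all measured genes. *Vbp1*, an alpha-type subunit first known as a partner of the von Hippel-Lindau tumour suppressor, went from 20.8 FPKM to 75.4 FPKM (log2 ratio 1.97, 4.06-fold after scaling, percentile 96.8). *Pfdn1*, a beta-type subunit, went from 13.0 FPKM to 29.9 FPKM (log2 ratio 1.31, 2.59-fold after scaling, percentile 87.1). At the deposited lengths it was the lowest transcript of the complex in both groups. An interval of 95% from counting error alone, based on the estimated fragments, spans 2.18 to 2.48 for *Pfdn6*, 1.86 to 2.09 for *Vbp1* and 1.12 to 1.49 for *Pfdn1*. These intervals leave out the spread between libraries and are therefore too narrow.

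*Pfdn5*, *Pfdn4* and *Pfdn2* lay closer to the median gene (log2 ratio -0.02). *Pfdn5*, the alpha-type subunit that is also known to bind the transcription factor MYC, was at 147 FPKM and 179 FPKM (log2 ratio 0.44, percentile 65.0). *Pfdn4*, the beta-type subunit with the highest level, was at 328 FPKM and 343 FPKM (log2 ratio 0.23, percentile 58.6). *Pfdn2* was the only subunit with a lower mean FPKM in *Btg4*-depleted oocytes, at 73.3 FPKM and 49.5 FPKM (log2 ratio -0.40, percentile 36.4). This ratio is relative to the other genes and does not show whether an oocyte held less *Pfdn2* mRNA. Both subunits shared with the URI complex thus stood at opposite ends of the prefoldin genes. *Pfdn2* was 2.96-fold above *Pfdn6* in control, and *Pfdn6* was 2.32-fold above *Pfdn2* in *Btg4*-depleted oocytes. Per length of the annotated transcript, which is longer for *Pfdn2*, these folds were 1.41 and 4.86.

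The make-up of the prefoldin transcripts differed accordingly. Summed over the 6 genes, the level was 607 FPKM in controls and 791 FPKM after depletion. *Pfdn4* held 54.0% of this sum in controls and 43.3% after depletion, and *Pfdn2* held 12.1% and 6.26%, or 6.47% and 3.21% per annotated length. *Pfdn6* held 4.08% and 14.5%, and *Vbp1* held 3.43% and 9.53%. *Pfdn5* held 24.2% and 22.6%, and *Pfdn1* held 2.14% and 3.78%. Alpha-type transcripts made up 27.7% of the sum in controls and 32.1% after depletion. Inside the alpha type, *Pfdn5* was 7.07-fold above *Vbp1* in controls and 2.37-fold above it after depletion.

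**Figure D2:**
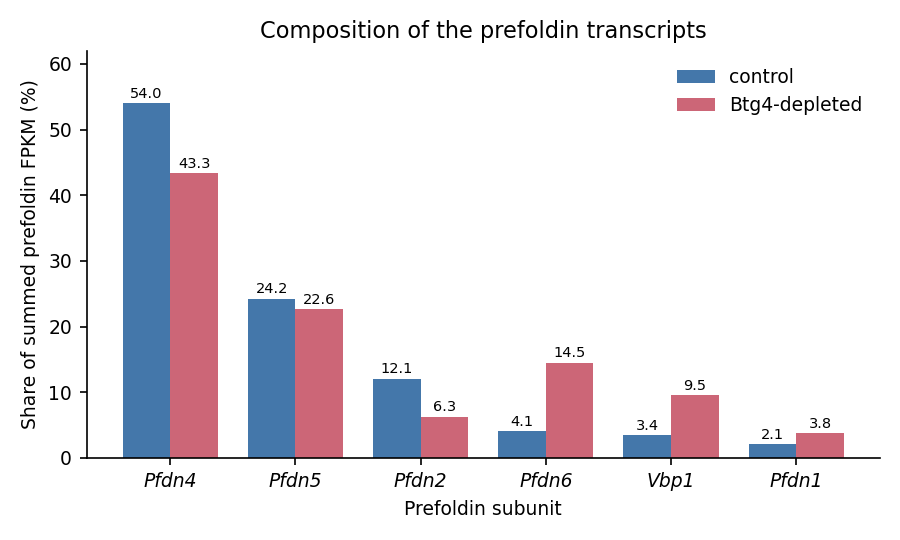
Share of each prefoldin transcript in the summed FPKM of the 6 genes (%), in control (blue) and *Btg4*-depleted oocytes (red), from group means without a known error. *Pfdn4* is the largest part in both groups, and *Pfdn6* goes from 4.08% to 14.5%.

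At the deposited lengths, the 3 genes that were higher began low and the other 3 began high, and this was set beside all genes of like level. Of 2453 genes at 10 to 30 FPKM in control, where *Pfdn1*, *Vbp1* and *Pfdn6* lie, 18.8% were 2-fold or more higher after depletion and 13.8% were 2-fold or more lower. Of 1179 genes at 60 to 400 FPKM, where *Pfdn2*, *Pfdn5* and *Pfdn4* lie, these shares were 8.57% and 14.0%. Per annotated length, *Pfdn2* would be at 31.5 FPKM in control, outside this range. Among genes of up to 1700 bases, 38.5% of 592 genes in the lower range and 16.8% of 400 genes in the upper range were 2-fold or more higher. A low level in control enters the ratio itself, and its part in the split among the prefoldin genes was not tested.

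All prefoldin transcripts are short, and short transcripts had higher ratios in these libraries. The lengths that the authors used were 708 bases for *Pfdn5*, 728 for *Pfdn6*, 745 for *Pfdn2*, 858 for *Pfdn4*, 1077 for *Pfdn1* and 1601 for *Vbp1*, beside a median of 2684 over all measured genes. Across the 10012 genes the log2 ratio went down with length (Spearman's rho -0.33, a description over genes that share the same libraries). Of the 2554 genes of up to 1700 bases, 33.8% were at least 2-fold higher, with a median log2 ratio of 0.55, and *Pfdn2*, *Pfdn4* and *Pfdn5* lie below this median. With a loess trend on length removed, the ratios of *Pfdn6* (1.71) and *Vbp1* (1.60) stayed past 2-fold and *Pfdn1* (0.77) did not. *Pfdn5* (-0.17) and *Pfdn4* (-0.37) were then below 0, and *Pfdn2* (-1.01) passed 2-fold lower. With the trend read at the length of the annotated transcript instead, *Pfdn2* (-0.73) did not pass 2-fold and *Pfdn5* was at -0.10. At the deposited lengths the median of the 6 genes was 0.30, with 15.5% of all genes at least 2-fold higher and 12.0% at least 2-fold lower. The plot of ratio and length shows the trend and where each subunit stands.

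**Figure D3:**
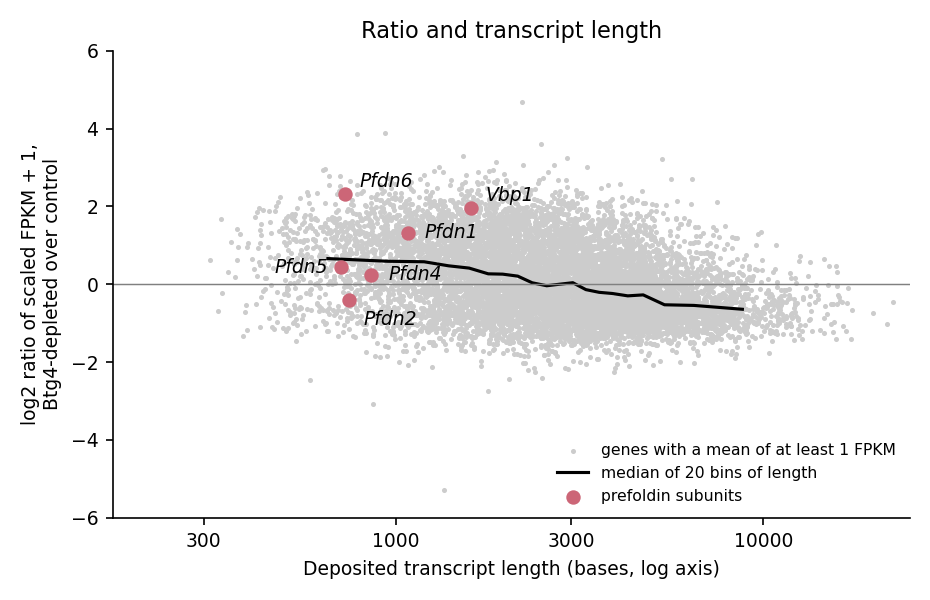
Log2 ratio of scaled FPKM + 1, *Btg4*-depleted over control, against the deposited transcript length (bases, log axis) for 10012 genes (grey), with the median in bins of length (line) and the prefoldin subunits (red). *Pfdn6*, *Vbp1* and *Pfdn1* lie above the line, and *Pfdn5*, *Pfdn4* and *Pfdn2* lie below it.

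The 6 ratios stood in the same order under each of the other scalings, pseudocounts and filters, and with the length trend removed. No scaling, the median of ratios and the filters only change an offset shared by all genes, so they could hardly change this order. Over the 7 other scalings, pseudocounts and filters and the one reported, *Pfdn6* lay between 2.17 and 2.46, *Vbp1* between 1.81 and 2.10 and *Pfdn1* between 1.15 and 1.43. *Pfdn5* lay between 0.28 and 0.57, *Pfdn4* between 0.06 and 0.35 and *Pfdn2* between -0.56 and -0.27. The distance from the lowest to the highest subunit was 2.73 on the log2 scale as reported and between 2.72 and 2.77 over all 9 settings. *Pfdn6* and *Pfdn2* have nearly the same deposited length (728 and 745 bases), so removing the trend at these lengths could hardly change this distance. With the trend read at annotated lengths, they were closer together, at 1.73 for *Pfdn6* and -0.73 for *Pfdn2*.

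**Figure D4:**
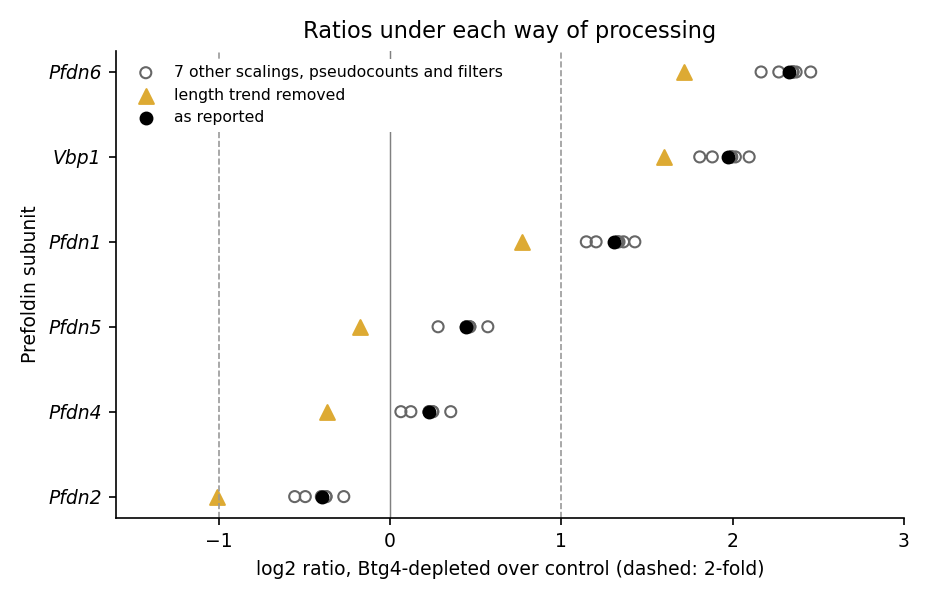
Log2 ratio of each prefoldin subunit, *Btg4*-depleted over control, as reported (black), under 7 other scalings, pseudocounts and filters (open circles) and with the trend on transcript length removed (triangles), with 2-fold marked by dashed lines. *Pfdn6* and *Vbp1* are past 2-fold in all 9 settings and *Pfdn1* in 8 of 9.

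The annotation sets limits to some of these values. The deposited length of *Pfdn2*, 745 bases, is far below the 1735 bases of its principal transcript in GENCODE M21, and that of *Pfdn5*, 708 bases, is below 1062 bases, while *Vbp1* (1601 and 1595 bases) and *Pfdn1* (1077 and 1109 bases) are close. Per annotated length, *Pfdn2* would stand at 31.5 FPKM in control and 21.3 FPKM in *Btg4*-depleted oocytes, the lowest of the 6 there. Ratios of single genes do not depend on this length unless the length trend is removed, and at 1735 bases *Pfdn2* would not count among genes of up to 1700 bases. The counting is not stated to use strand, and exons of *Pfdn2* share 535 bases with *Klhdc9*, a gene on the other strand listed at 0.453 and 0.313 FPKM. Exons of *Pfdn4* share 235 bases with the antisense gene *Gm16796* (1.88 and 0.783 FPKM), and those of *Pfdn5* share 165 bases with the downstream gene *Myg1* on the same strand (1.14 and 5.09 FPKM). Exons of *Pfdn6* share 43 bases with the antisense gene *CR974462.1*, which was not listed under this symbol. The processed pseudogene *Gm5644* is 97.0% identical to *Pfdn5* over 465 bases, so the level of *Pfdn5* is uncertain to that extent. *Pfdn1* and *Vbp1* had no such overlap or copy (at least 90% identity over 100 bases). Overlaps and copies were read on the annotated transcripts. For *Pfdn2* and *Pfdn5*, the shared bases may therefore lie outside the shorter transcripts that the authors used.

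Elements of the 3′ end were read only for *Pfdn1*, *Vbp1* and *Pfdn4*, whose principal transcript lies within 10% of the deposited length, and on the strand of the mRNA. A cytoplasmic polyadenylation element (TTTTAT or TTTTAAT), the signal for tail lengthening in maturing oocytes, was in the last 150 bases of 0 of these 3 transcripts and of 27.7% of 6574 genes. A Pumilio element (TGTANATA) was in 0 of 3 3′ UTRs and in 23.7% of 7244. The AU-rich pentamer ATTTA was in 3 of 3 and in 65.4% of 7244, with 4 copies in *Vbp1*, 2 in *Pfdn4* and 1 in *Pfdn1*. A polyadenylation signal (AATAAA or ATTAAA) was in the last 40 bases of 1 of 3 and of 80.8% of 7170 genes. *Pfdn1* and *Pfdn4* lacked it, and whether their annotated ends are those used in oocytes was not tested. The count in the last 150 bases depends on these ends. The signal of *Vbp1*, the variant form ATTAAA, begins 25 bases before the end of the transcript and is shown in capitals within its site at chrX:75534906-75534935 (plus strand).
Vbp1: gtatttcatgttATTAAAatagtgatgttc

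CCT, the chaperonin that takes over the chains from prefoldin, is the complex most like it in function, and 8 of 9 of its genes were measured (*Cct6b*, a testis form, was below the filter). After depletion 4 were 2-fold or more higher and 0 were 2-fold or more lower, beside 19.8% and 11.7% of all measured genes. Their median log2 ratio was 1.19, and the difference from prefoldin was not tested. The length trend was not removed here, and the measured CCT transcripts, at 1769 to 2499 bases, are longer than those of prefoldin. *Cct5* had the highest log2 ratio of its genes, 2.48 (95.3 and 480 FPKM), and *Cct6a* the lowest, -0.89 (5.84 and 2.40 FPKM). The highest and the lowest measured CCT transcript were 16.3-fold apart in controls and 200-fold apart after depletion. These folds rest on *Cct6a*, and without it the other 7 genes were 2.86-fold apart in controls and 11.9-fold apart after depletion.

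Other partners of prefoldin in folding were counted in the same way, beside 19.8% and 11.7% of all genes. Of the 3 measured subunits of the URI complex that prefoldin does not share (*Uri1*, *Uxt* and *Pdrg1*), 0 were past 2-fold in either direction, with log2 ratios from -0.54 for *Uri1*, its scaffold, to 0.72 for *Uxt*. Of 6 genes of R2TP, the co-chaperone that assembles large complexes with the prefoldin-like proteins, and its partners, 2 were at least 2-fold higher and 1 at least 2-fold lower. They ran from *Wdr92* at -1.11 to *Ruvbl2*, an AAA+ ATPase, at 1.36. Of 3 measured cofactors of CCT, 1 was past 2-fold in each direction, *Txndc9* at 1.52 and *Pdcl* at -1.23.

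Among the client proteins, the tubulins and actins, 6 of 16 measured genes were at least 2-fold higher and 0 at least 2-fold lower. Over all measured genes these shares were 19.8% and 11.7%. The median log2 ratio of the 16 genes was 0.65. They ran from *Tubb3* at -0.97 (287 and 130 FPKM) to *Tubd1*, delta-tubulin, at 2.42 (2.93 and 17.9 FPKM), and tubulin genes may share reads among near-identical copies. The tubulin folding cofactors act after CCT to join alpha- and beta-tubulin. Of the 6 measured, and beside the same shares of all genes, 3 were at least 2-fold higher and 0 at least 2-fold lower (median 1.02). *Tbcc* was the highest of these at 2.93 (1.22 and 14.2 FPKM) and *Tbca* the lowest at -0.21 (39.5 and 30.3 FPKM). Each of these 6 lists, like prefoldin, held members on both sides of zero as reported, as the plot by list shows.

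**Figure D5:**
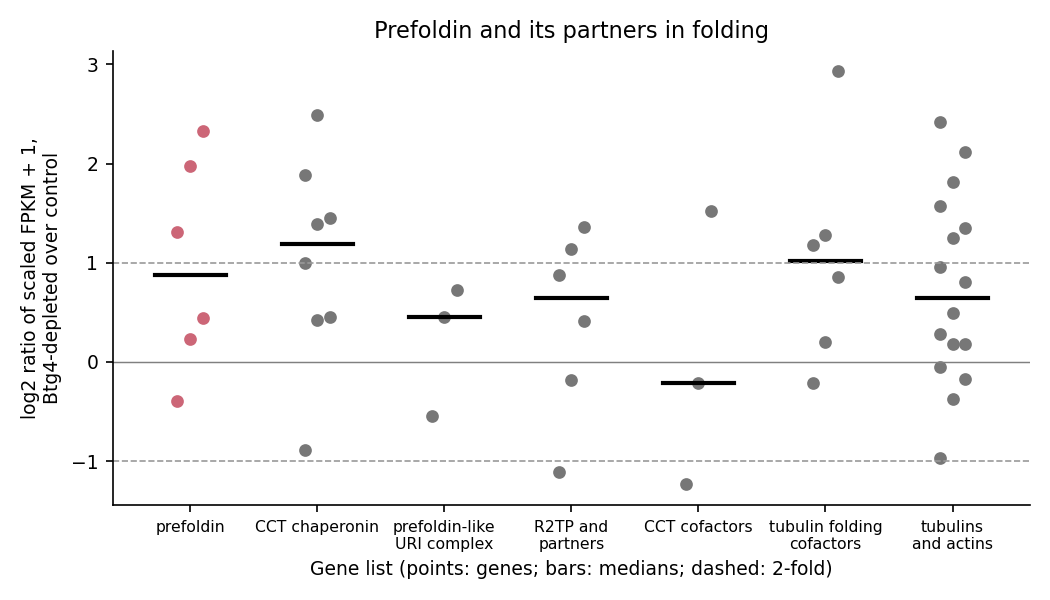
Log2 ratio of scaled FPKM + 1, *Btg4*-depleted over control, for the measured genes of prefoldin (red) and of 6 lists of partners and clients (grey), with bars at the medians and dashed lines at 2-fold. The prefoldin genes run from -0.40 to 2.33 around a median of 0.87, and the CCT genes from -0.89 to 2.48 around a median of 1.19.

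By distance from the median prefoldin gene (42.6 FPKM in control, log2 ratio 0.87) over both group means, the nearest genes were *Entpd6*, *Gtf2f2* and *Nrbp1*, at distances of 0.02, 0.04 and 0.05 in log2 units. With only 2 means per gene, likeness of this kind says nothing about a shared function. *Entpd6*, a nucleotide-hydrolysing enzyme, was at 42.9 and 71.7 FPKM (log2 ratio 0.89), *Gtf2f2*, a subunit of transcription factor IIF, at 41.6 and 68.1 FPKM (0.86), and *Nrbp1*, a pseudokinase, at 42.9 and 68.6 FPKM (0.83).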

How the data were processed

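Oocytes were assigned to 3 control and 3 *Btg4*-depleted libraries from their sample titles. For each library, 10 ng of total RNA was copied with a SMARTer kit that starts at poly(A) tails (insert about 200 bases), so a level depends on the amount of an mRNA and on its tail. BWA and the mm9 build are named in the submitters' processing notes. Versions, the annotation and how reads were counted: not given in the sources used here. The authors deposited FPKM as the mean of each group, with the gene length they used (*Pfdn4* has a fractional length). Precision is limited by 3 libraries a group and by the estimated depth, and intervals cover counting error only.

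The authors also deposited lists of genes they called with DESeq2 and NOISeq, with log2 ratios, scores, p-values and probabilities of their own comparison. None of these was used, and the NOISeq lists were left out. Of the DESeq2 lists, only the mean normalized count over all libraries (a signal the authors scaled by size factors) was read, to estimate depth. The table of all genes holds group means alone, so limma, which was planned for single libraries, was not run.

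Group means were scaled by TMM (trimming 30% of ratios and 5% of levels at either end) over genes with a mean of at least 1 FPKM, and log2 ratios were taken with a pseudocount of 1. No scaling, the median of ratios, quantile normalization, pseudocounts of 0.1 and 0.5, a filter at 5 FPKM or none, and subtraction of a loess curve over length (span 30%) were tried as alternatives. The members and gene lists were chosen with earlier results of these data known. All 6 members are named. From each list of partners and clients the genes with the highest and lowest ratio were named, as were genes that overlap or face a member and the 3 genes nearest to the median member. Transcripts of GENCODE M21 were matched for 96.2% of measured genes by Entrez identifier, taking the principal isoform closest to the deposited length. Other copies were searched with blastn. Promoters came from RefSeq, which gave windows for 5 of the 6 members. Coordinates are of GRCm38, not of the authors' build. The scaling and the length correction were tested on simulated group means with a known offset and slope. The software was Python 3.11.15 with statsmodels 0.14.6, scipy 1.17.1, pandas 2.3.3 and numpy 2.4.6.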

Additional observations from a re-analysis of the deposited data

How the results depend on the processing

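The number of prefoldin genes at least 2-fold higher was 3 in 8 of 9 settings and 2 with the length trend removed. Their median log2 ratio was 0.71 without scaling, 1.00 without a filter and 0.30 with the length trend removed, and that of *Btg4* was -5.46, -5.17 and -5.75. With the trend read at annotated lengths, also chosen after seeing the data, the median was 0.34 and 2 genes were at least 2-fold higher. The fold between the highest and the lowest subunit was 20.1 in controls and 9.12 after depletion with levels not divided by length, and 11.3 and 5.97 without *Pfdn4*. Per annotated length, an alternative chosen after seeing the data, it was 23.9 and 14.8. Of the genes past 2-fold, 62.9% were higher as reported, 49.1% without scaling and 53.8% after quantile normalization. Genes 2-fold or more lower numbered 1168 as reported (11.7% of those measured), 1677 without scaling (16.7%), 892 without a filter (5.68%) and 714 with a minimum of 5 FPKM (10.6%). Leaving out single libraries was not run, since only group means were used. No paired analysis was possible because the values are means over each group and carry no replicate numbers.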
